A study of Homo sapiens with 14 samples.

Results

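The 59 genes described here encode the machinery of mitosis: the kinases and cyclins that start it, the spindle and its motors, the kinetochores, the checkpoint that times anaphase, the proteins that shape and separate chromosomes, and those that divide the cell. They were taken by gene symbol from a list of known mitotic genes drawn up with earlier results of these data known, and all 59 were found among the 56479 entries of the deposited count table, each with 1 entry. All 59 also passed the filter on low counts that left 19232 genes for testing.

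Mitosis begins when the kinase CDK1, bound to cyclin B, is switched on by CDC25 phosphatases. Kinetochores assembled on CENPA-containing centromeres then capture spindle microtubules, and the checkpoint proteins BUB1B, BUB3 and MAD2L1 hold back the ubiquitin ligase APC/C until each chromosome is attached. CDC20 with the APC/C marks securin and cyclin B for destruction, separase opens cohesin, and the central spindle directs cytokinesis. Most of these genes are transcribed late in the cell cycle, through promoters read by the DREAM complex in resting cells and by MYBL2, the MuvB proteins and FOXM1 in dividing ones, so their transcripts are widely used as a readout of proliferation in liver tumour cells.

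RNA came from 2 established human liver tumour lines, HepG2, which the labels give as hepatoblastoma, and Hep3B, given as hepatocellular carcinoma, both labelled wild type. HepG2 on culture dishes received 4% (v/v) polyethylene glycol 300 (PEG), an osmolyte that draws water out of cells, for 5 days, against regular isotonic medium. HepG2 on transwells, inserts with a porous membrane, lay under a weight, against uncompressed cells. Hep3B on transwells lay under a weight or received 3% PEG, against uncompressed cells. All media were serum-supplemented DMEM. How heavy the weight was and how long cells stayed on transwells is not stated in those labels. Each of the 7 groups has 2 libraries of 1 line, so the values describe these lines and not liver tumours in general. The labels speak of biological replicates without describing separate cultures, and p-values measure the spread between these samples, which may be technical.

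Libraries held between 21.2 M and 35.4 M counts. RB1, whose loss is a known feature of Hep3B, averaged between 2.68 and 4.49 CPM (counts scaled to library size, here after TMM normalisation) in the Hep3B groups and between 104 and 130.1 CPM in the HepG2 groups. All 9 liver cell markers were above 1 CPM in every group, and their summed level was 31390.0 to 34746 CPM in 4% PEG, against 134997 to 143116 CPM in isotonic medium; 8 of the 9 fell and none rose, HNF4A not passing the test. In Hep3B the same sum was 29010.3 to 29140.1 CPM in 3% PEG, against 43598 to 46312 CPM uncompressed; 5 fell, HNF4A rose and 3 did not pass. Under the weight 1 fell and 1 rose in each line. The part of these markers in the results below was not tested. Summed over 6 markers each, blood or immune cell markers were at 1.05 to 5.91 CPM in all groups and PTPRC had no count in any HepG2 group, while endothelial markers were at 0.742 to 15.2 CPM and stellate cell or fibroblast markers at 16.1 to 65.2 CPM. Replicates were less alike on dishes than on transwells: the biological coefficient of variation within a pair was 0.290 in 4% PEG and 0.320 in isotonic medium, against 0.0459 to 0.0705 in the transwell groups. The mitotic genes took part in this: replicate 1 was the higher one for 45 of 59 genes in 4% PEG and for 48 of 59 in isotonic medium, with a median difference of 0.58 and 0.57 on the log2 scale. The tests below pool the spread of all 14 libraries, a coefficient of 0.168, and counts from fits of dish or transwell libraries on their own stand beside them.

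Of the 59 genes, 21 share exon bases with another gene in GENCODE 29, 19 of them with a gene on the opposite strand. The sources used here do not say whether reads were counted by strand, so reads in shared stretches cannot be assigned. The largest shares were 57.6% of the exon bases of PRC1, with AC068831.7 on the same strand, and 33.1% of those of NCAPG, with LCORL on the opposite strand. FOXM1 shared 15.9% with ITFG2. The near-identical copies KIF4B, PTTG2 and PTTG3P held at most 32 counts in any library.

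In summed level the mitotic genes held 406 ± 42.8 CPM in 4% PEG against 4468 ± 1465 CPM in isotonic medium, and 2773 ± 29.6 CPM in HepG2 under the weight against 5254 ± 49.8 CPM in uncompressed HepG2 (mean ± SD, n = 2 each). In Hep3B the sum was 8409 ± 191 CPM under the weight and 7443 ± 59.6 CPM in 3% PEG, against 8234 ± 329 CPM in uncompressed cells. The lowest of the 7 group means lay in 4% PEG for each of the 59 genes. The highest lay in a Hep3B group for 49 of them, in uncompressed HepG2 for 8 and in isotonic HepG2 for 2.

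Per kilobase of exon, the most abundant member over all libraries was TOP2A, the topoisomerase that untangles sister chromatids, at 108 CPM per kb. TPX2, which activates AURKA and nucleates spindle microtubules, followed at 86.8 CPM per kb, and the least abundant was CDCA3, a factor that promotes destruction of the kinase WEE1, at 2.10 CPM per kb. In 4% PEG this order was lost: TOP2A averaged 0.65 CPM per kb there, and the most abundant member was BUB3, a checkpoint protein, at 12.99 CPM per kb.

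**Figure D1:**
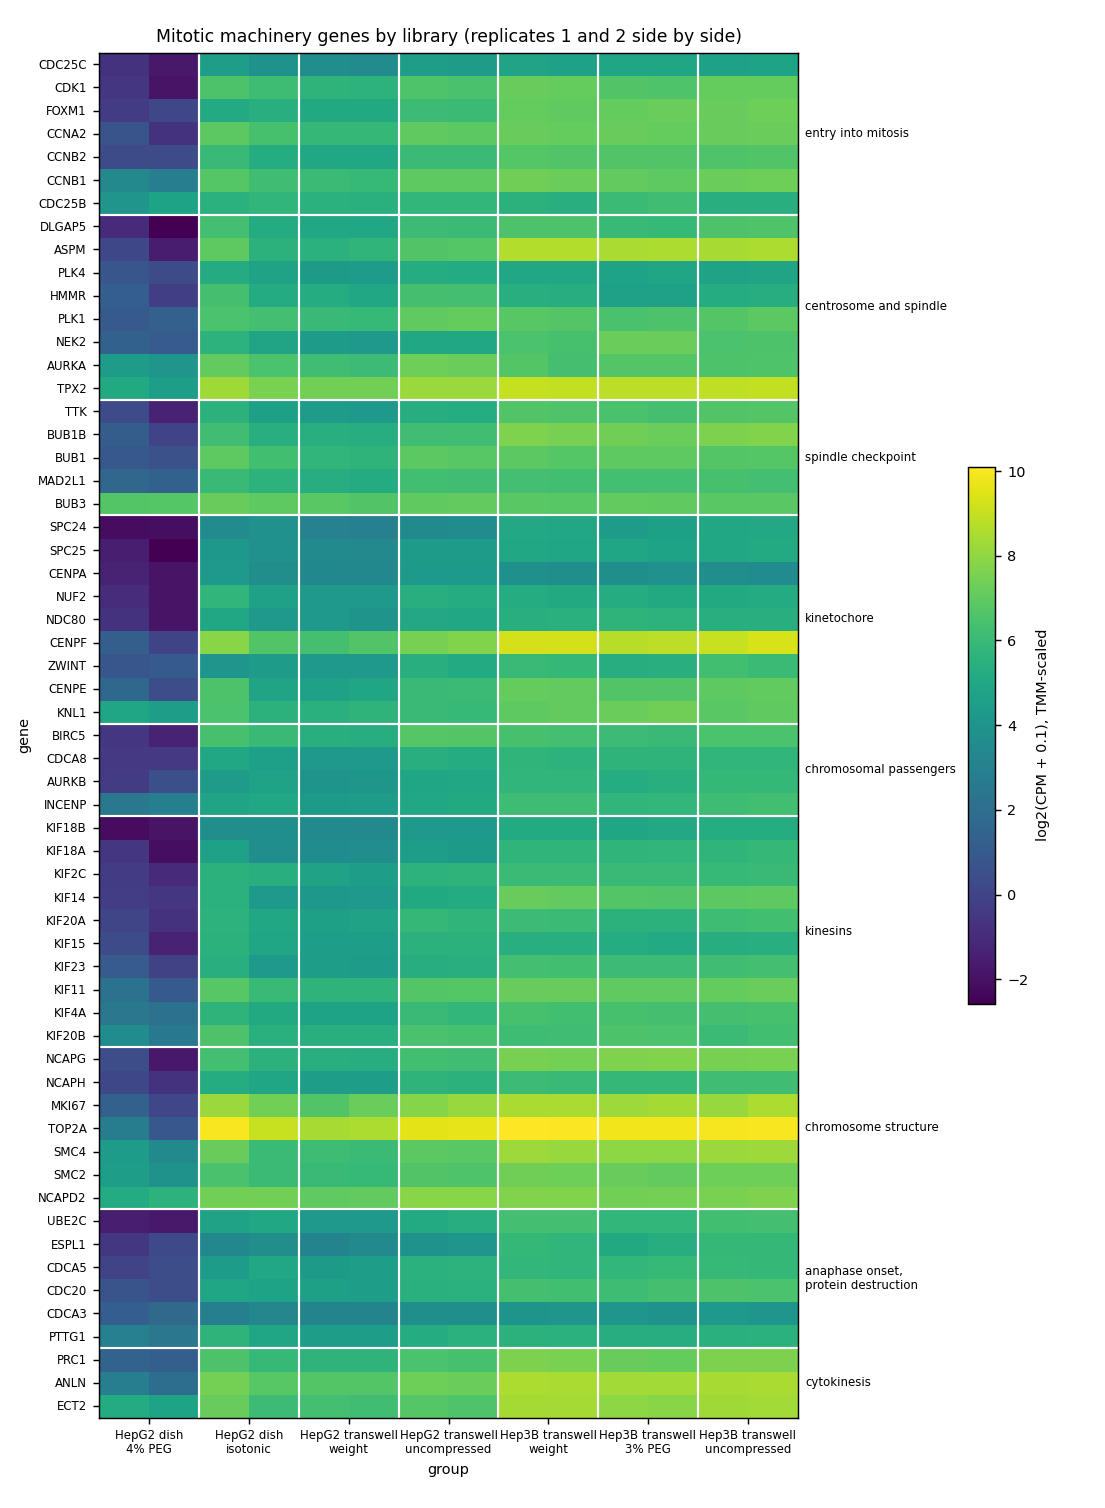
Level of each of the 59 mitotic genes (rows, ordered within each role by the level in 4% PEG) in each of the 14 libraries (columns, replicates 1 and 2 side by side), as log2(CPM + 0.1) on a colour scale. The 2 columns of 4% PEG are the darkest in every role, BUB3 stays bright in them, and the columns of HepG2 under the weight are darker than those of uncompressed HepG2.

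The comparison of 4% PEG with isotonic medium asks what 5 days of osmotic compression do to HepG2. Every mitotic gene fell in the TMM-scaled fit, and all but BUB3 were also called lower with libraries scaled by their totals alone. In that setting the median of all genes was 0.37, and 51% of all genes were called, 2897 of 19232 as lower. In edgeR's quasi-likelihood test all 59 had a lower level with an adjusted p under 0.05, and in all 59 both PEG libraries lay below both isotonic libraries. Among all genes tested 46.9% were called, 23% as lower, and 28.7% had both PEG libraries below both isotonic ones. The median log2 fold change was -5.28 over the 59 genes and 0.01 over all genes. Set as a share of the isotonic mean, the PEG mean had a median of 2.55%, with 45 genes at or under 10% and 9 at or under 1%. In bulk RNA, fewer dividing cells and less of these transcripts per cell cannot be told apart. With the 4 dish libraries fitted on their own, 57 genes were called lower, where 22% of all genes were called, 10.2% as lower. The exceptions there were BUB3 and CDC25B, at an adjusted p of 0.39 and 0.056. The lowest adjusted p of the 59 genes in that fit was 0.00105. Unless stated, single-gene standard errors and adjusted p values in 4% PEG below are from the pooled fit. Its coefficient of variation is smaller than that within either dish pair.

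The largest fall was that of DLGAP5, a microtubule-bundling protein that stabilises kinetochore fibres. It had 0.381 and 0.0680 CPM in 4% PEG and 79.9 and 37.4 CPM in isotonic medium, a log2 fold change of -7.97 ± 0.47 (SE, adjusted p = 1.52e-07). CDK1 followed with 0.572 and 0.170 CPM in 4% PEG and 93.5 and 71.6 CPM in isotonic medium, a log2 fold change of -7.76 ± 0.30 (adjusted p = 7.82e-09). TOP2A had 6.67 and 1.70 CPM in 4% PEG and 1016 and 521 CPM in isotonic medium, a log2 fold change of -7.51 ± 0.53 (adjusted p = 5.62e-07). With the dish libraries fitted on their own the SE was 0.78 for DLGAP5, 0.58 for CDK1 and 0.78 for TOP2A. The adjusted p was 0.00182, 0.00123 and 0.00214, in the same order. In each of these genes the groups were far apart, and the second replicate was the lower one in both groups. DLGAP5 and CDK1 stood on 14 and 23 counts summed over the PEG libraries, so the exact size of their fold rests on few reads. The lowest such sum was that of SPC24, with 4 counts in each PEG library, and no mitotic gene was without counts in any library.

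The smallest falls were those of BUB3, CDC25B and KNL1. BUB3 had 106 and 109.9 CPM in 4% PEG and 141 and 126 CPM in isotonic medium, a log2 fold change of -0.31 ± 0.10 (adjusted p = 0.0288). CDC25B, one of the phosphatases that activate CDK1, had 16.5 and 27.7 CPM in 4% PEG and 45.1 and 54.2 CPM in isotonic medium, a log2 fold change of -1.17 ± 0.20 (adjusted p = 0.000495). KNL1, the kinetochore scaffold that recruits BUB1 and BUB3, had 28.9 and 23.3 CPM in 4% PEG and 91.1 and 48.1 CPM in isotonic medium, a log2 fold change of -1.42 ± 0.23 (adjusted p = 0.000403). These genes kept much of their level, most of it in BUB3 and a sizeable part of it in CDC25B and KNL1, while most members did not. The call of BUB3 was not stable: its adjusted p was 0.061 without replicate 1 of 4% PEG, 0.097 without replicate 1 of isotonic medium, 0.10 with no low-count filter, and with libraries scaled by their totals alone its log2 fold change was 0.045.

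Promoters are shown for the 3 genes that fell most in 4% PEG among those whose window holds a motif called the cell cycle homology region, through which the MuvB proteins bind, and for the 2 genes with a window that fell least. RefSeq promoter windows on GRCh38.p14, from 250 bases before to 50 bases after a gene's start, were matched for 51 of the 59 genes. The windows run 5' to 3' on the gene's own strand, and capitals mark TTTGAA and TTTAAA, the cores of that motif, and the CCAAT box, on either strand, so that TTCAAA and ATTGG are the reverse reading. The window of DLGAP5 lies at chr14:55191536-55191835 on the minus strand, the first of 2 windows of CDK1 at chr10:60778081-60778380 on the plus strand, that of TOP2A at chr17:40417847-40418146 on the minus strand, the first of 4 windows of CDC25B at chr20:3786701-3787000 on the plus strand and that of CDCA3 at chr12:6851237-6851536 on the minus strand.
DLGAP5: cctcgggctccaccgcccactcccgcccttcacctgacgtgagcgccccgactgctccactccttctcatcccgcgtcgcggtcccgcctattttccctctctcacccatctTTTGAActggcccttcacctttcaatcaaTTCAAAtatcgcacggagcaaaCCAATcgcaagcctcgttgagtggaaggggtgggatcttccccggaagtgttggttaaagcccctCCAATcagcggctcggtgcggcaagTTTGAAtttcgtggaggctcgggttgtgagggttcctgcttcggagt
CDK1: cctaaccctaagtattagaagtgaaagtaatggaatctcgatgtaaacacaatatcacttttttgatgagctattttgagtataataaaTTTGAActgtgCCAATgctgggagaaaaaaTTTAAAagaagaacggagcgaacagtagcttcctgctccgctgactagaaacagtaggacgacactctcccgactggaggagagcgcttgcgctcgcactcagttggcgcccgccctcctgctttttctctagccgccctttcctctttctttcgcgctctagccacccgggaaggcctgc
TOP2A: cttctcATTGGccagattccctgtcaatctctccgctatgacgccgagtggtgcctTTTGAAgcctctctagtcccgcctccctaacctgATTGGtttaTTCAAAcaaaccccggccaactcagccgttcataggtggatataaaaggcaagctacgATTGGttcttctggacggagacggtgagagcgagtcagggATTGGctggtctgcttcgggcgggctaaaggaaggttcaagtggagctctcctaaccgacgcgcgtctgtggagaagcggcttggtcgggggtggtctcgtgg
CDC25B: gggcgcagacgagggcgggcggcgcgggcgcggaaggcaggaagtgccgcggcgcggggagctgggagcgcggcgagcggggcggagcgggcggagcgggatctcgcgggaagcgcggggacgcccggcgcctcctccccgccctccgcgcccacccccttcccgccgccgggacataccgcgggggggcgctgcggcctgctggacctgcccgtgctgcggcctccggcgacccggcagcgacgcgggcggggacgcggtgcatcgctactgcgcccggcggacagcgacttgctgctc
CDCA3: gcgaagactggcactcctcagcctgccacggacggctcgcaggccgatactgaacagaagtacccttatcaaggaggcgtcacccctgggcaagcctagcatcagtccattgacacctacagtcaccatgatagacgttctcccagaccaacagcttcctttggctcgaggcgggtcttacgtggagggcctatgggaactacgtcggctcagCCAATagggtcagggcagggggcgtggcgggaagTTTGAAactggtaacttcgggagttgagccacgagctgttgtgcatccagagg
DLGAP5, CDK1 and TOP2A, unlike CDC25B and CDCA3, were chosen among genes holding a core, and each also holds a CCAAT box. CDC25B holds neither in the window shown, though its other windows together hold 1 TTTAAA and 2 CCAAT, and CDCA3, with a log2 fold change of -1.59 ± 0.22 (adjusted p = 0.0001), holds both.

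Counting a match in any window of a gene, TTTGAA occurred in 38 of the 51 genes (74.5%), against 18.2% of the 27305 genes with a window, and TTTAAA in 15 (29.4%), against 14.5%. CCAAT occurred in 40 (78.4%), against 39.7%, and CCAAT together with either core in 35 (68.6%), against 12.7%. Of the TTTGAA matches in the first windows, 61.7% of those in mitotic genes lay from 60 bases before to 20 bases after the start, against 22.9% of those in all genes. Any of the E2F sites TTTCCCGC, TTTGGCGC, TTTCGCGC and TTTGCCGC was present in 4 of the 51 genes (7.84%), against 3.99% of all genes. The median log2 fold change in 4% PEG was -5.30 for genes with TTTGAA and -4.82 for those without, but -5.28 for genes with either core and -5.31 for those without, and -5.28 with and -5.46 without a CCAAT box together with a core. Under the weight it was -0.93 with TTTGAA and -1.01 without. All motifs were searched on both strands, and a match is only an occurrence of the letters.

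Entry into mitosis was lower throughout, with a median log2 fold change of -5.51 over 7 genes. CCNB1, the main cyclin partner of CDK1 and the most abundant entry gene per kilobase, had 10.5 and 7.01 CPM in 4% PEG and 107 and 73.7 CPM in isotonic medium, a log2 fold change of -3.36 ± 0.21 (adjusted p = 2.26e-07). CCNA2, the cyclin of late S phase and G2, had a larger fall, with a log2 fold change of -6.62 ± 0.33 (adjusted p = 4.4e-08). FOXM1, a transcription factor that drives many of these genes, had 0.699 and 0.987 CPM in 4% PEG and 36.2 and 40.7 CPM in isotonic medium. The 2 cyclins B thus differed in size within the same fall: CCNB2 had 1.17 and 1.19 CPM in 4% PEG and 65.7 and 38.1 CPM in isotonic medium.

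Among the 8 centrosome and spindle genes the median was -4.87. PLK1, the kinase of mitotic entry, centrosome maturation and cytokinesis, had 1.91 and 2.42 CPM in 4% PEG and 92.3 and 80.7 CPM in isotonic medium, a log2 fold change of -5.32 ± 0.16 (adjusted p = 1.59e-09). TPX2 had 35.3 and 22.9 CPM in 4% PEG and 315 and 187 CPM in isotonic medium, a log2 fold change of -3.11 ± 0.24 (adjusted p = 1.07e-06). Its partner AURKA, the kinase of spindle poles, had 20.9 and 16.4 CPM in 4% PEG and 135 and 91.4 CPM in isotonic medium. TPX2 and AURKA therefore kept a larger share of their level than PLK1, whose replicates also lay closer together.

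The 5 checkpoint genes had a median of -5.26, and BUB3 stood apart from the other 4. BUB1B, the checkpoint protein also called BubR1, had 2.13 and 0.884 CPM in 4% PEG and 73.7 and 42.8 CPM in isotonic medium, a log2 fold change of -5.26 ± 0.33 (adjusted p = 2.52e-07). BUB1, the kinase that places the checkpoint and shugoshin at centromeres, had 1.81 and 1.36 CPM in 4% PEG and 123 and 77.5 CPM in isotonic medium. BUB1 and BUB1B both bind BUB3 in the cell, and both fell where BUB3 had the smallest log2 fold change of the 59 genes.

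Kinetochore genes had the lowest median of any role, -6.22 over 9 genes. CENPF, a large outer kinetochore protein and the most abundant of them per kilobase, had 2.29 and 0.918 CPM in 4% PEG and 233 and 102 CPM in isotonic medium, a log2 fold change of -6.69 ± 0.45 (adjusted p = 3.98e-07). All 4 subunits of the NDC80 complex, which grips microtubules, were at or under 0.508 CPM in both PEG libraries: NDC80 and NUF2 fell by 6.22 and 7.08 on the log2 scale, SPC24 and SPC25 by 6.55 and 6.58. KNL1 was the kinetochore gene that fell least.

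The chromosomal passenger complex, which corrects faulty attachments and starts cytokinesis, had a median of -5.02 over its 4 genes. AURKB, its kinase, had 0.667 and 1.33 CPM in 4% PEG and 21.4 and 26.5 CPM in isotonic medium, a log2 fold change of -4.59 ± 0.24 (adjusted p = 6.39e-08). BIRC5, or survivin, which brings the complex to centromeres, had 0.572 and 0.306 CPM in 4% PEG and 83.9 and 61.6 CPM in isotonic medium, a log2 fold change of -7.35 ± 0.24 (adjusted p = 3.12e-09). INCENP, the scaffold, fell by 2.19 on the log2 scale and had 5.62 and 7.48 CPM in 4% PEG, against 27.9 and 31.8 CPM in isotonic medium. The subunits of 1 complex thus fell by unequal amounts.

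The 10 kinesins, motors that slide, cap or carry cargo along microtubules, had a median of -5.64. KIF11, which pushes spindle poles apart, had 4.51 and 1.91 CPM in 4% PEG and 113 and 63.1 CPM in isotonic medium, a log2 fold change of -4.77 ± 0.35 (adjusted p = 7.30e-07). KIF2C, which takes apart microtubule ends, had 0.667 and 0.374 CPM in 4% PEG and 47.6 and 42.9 CPM in isotonic medium.

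The 7 genes of chromosome structure had a median of -5.48. MKI67, the source of the Ki-67 proliferation stain and a coat of mitotic chromosomes, had 2.51 and 0.987 CPM in 4% PEG and 298 and 168 CPM in isotonic medium, a log2 fold change of -7.04 ± 0.44 (adjusted p = 2.11e-07). Within condensin I the core subunit SMC2 had 23.4 and 15.1 CPM in 4% PEG and 88.2 and 66.5 CPM in isotonic medium, while NCAPH had 1.02 and 0.510 CPM in 4% PEG and 38.1 and 30.8 CPM in isotonic medium. NCAPD2 fell by 2.00 and NCAPH by 5.48 on the log2 scale, so that this complex also fell unevenly. SMC2 and SMC4 also serve condensin II.

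The 6 genes of anaphase onset and protein destruction had a median of -4.06, and the 3 cytokinesis genes one of -4.70. UBE2C, the ubiquitin-conjugating enzyme of the APC/C, had 0.254 and 0.204 CPM in 4% PEG and 26.5 and 32.9 CPM in isotonic medium, a log2 fold change of -6.98 ± 0.20 (adjusted p = 1.59e-09). PTTG1, or securin, fell by 2.65 on the log2 scale and had 7.52 and 5.48 CPM in 4% PEG, against 50.8 and 30.7 CPM in isotonic medium. ANLN, or anillin, which organises the contractile ring, had 7.08 and 3.91 CPM in 4% PEG and 176 and 111 CPM in isotonic medium, a log2 fold change of -4.70 ± 0.27 (adjusted p = 1.24e-07). ECT2, which activates RhoA at the cell equator, kept more of its level, with 36.7 and 27.0 CPM in 4% PEG and 140 and 69.6 CPM in isotonic medium.

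**Figure D2:**
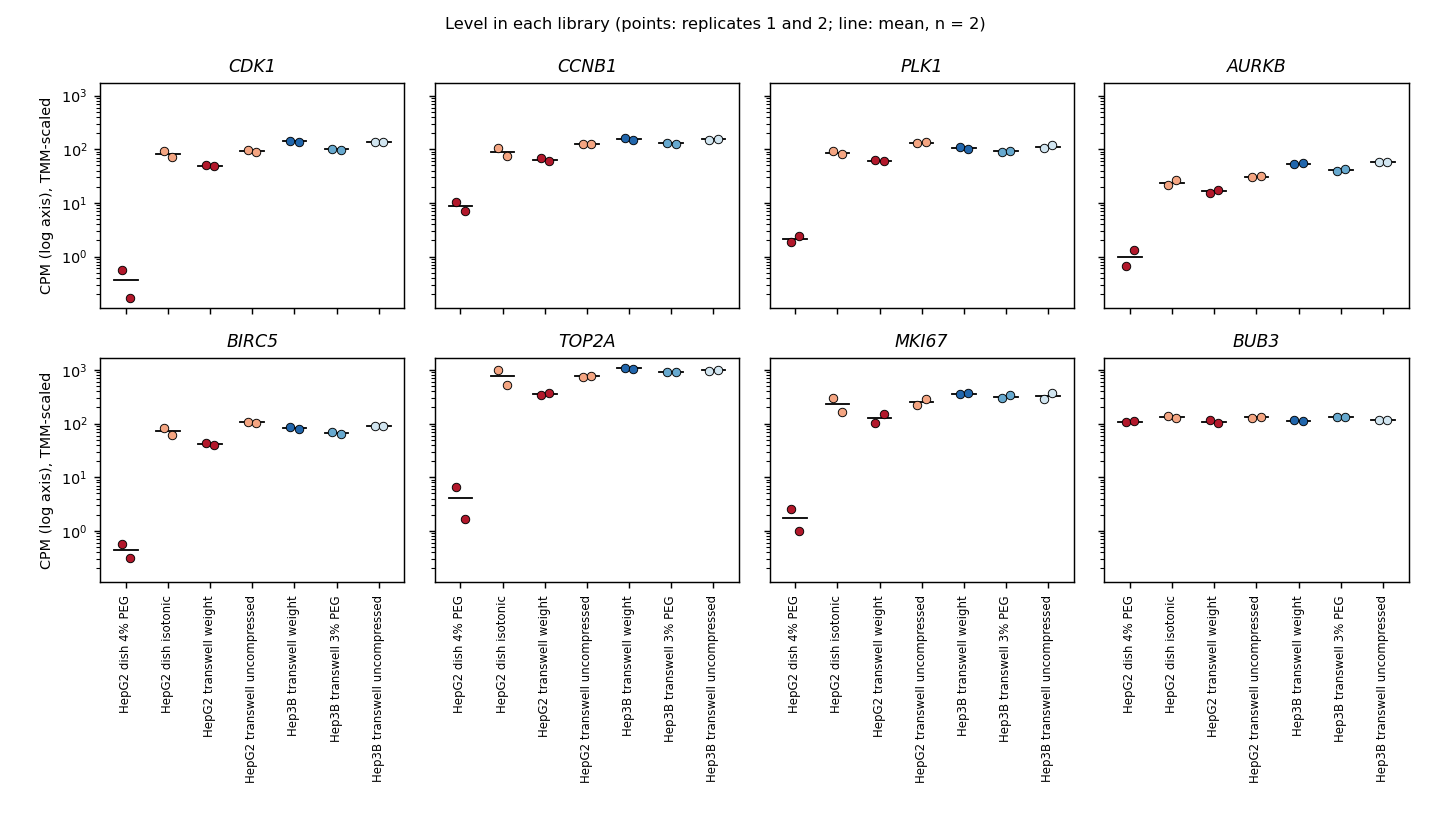
Level of 8 mitotic genes in each library, in CPM on a log axis (points are replicates 1 and 2, lines their mean, n = 2). Every gene but BUB3 drops by about an order of magnitude or more in 4% PEG, and all 8 lie lower in HepG2 under the weight than in uncompressed HepG2, while the Hep3B groups lie close together.

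A further 108 genes of mitosis outside the list, in 6 sets, were examined in 4% PEG: 73 were lower and 7 higher, with a median log2 fold change of -0.91. Among all genes 23% were lower and 23.9% higher, the background for each set below. In the MuvB core with MYBL2, 4 of 6 genes were lower and 1 higher, and MYBL2, the activator that joins MuvB in dividing cells, averaged 0.211 CPM in 4% PEG and 56.0 CPM in isotonic medium, a log2 fold change of -8.00 ± 0.40. LIN37, another MuvB subunit, was the 1 higher, at 0.99 ± 0.33 (adjusted p = 0.0272). It is named in addition to the largest change of its set. Of 31 other centromere and kinetochore genes 24 were lower and 1 higher, with a median of -1.92 and the largest fall in CENPM, at -6.01 ± 0.80. CENPM averaged 0.0170 CPM in 4% PEG and only 1.40 CPM in isotonic medium, so the size of its fall rests on few reads. Other regulators of entry and exit were lower in 13 of 16, led by GTSE1 at -6.89, and other spindle and cytokinesis genes in 19 of 28, with 3 higher, led by CIT at -5.60. Subunits of the APC/C, which also work outside mitosis, were lower in 5 and higher in 2 of 15, with a median of -0.26. Cohesin and condensin II genes were lower in 8 of 12, with a median of -0.73.

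The weight on HepG2, set against uncompressed transwells, addresses mechanical compression in the same line. Mitotic genes were again lower, by much less. In the test 36 of the 59 fell and none rose, while 23 did not pass. In all 59 both libraries under the weight lay below both uncompressed ones. Among all genes 9.58% were called, 4.18% as lower and 5.4% as higher, and 33.5% had both libraries below both. The median log2 fold change was -0.96 over the 59 genes, and the mean under the weight was 39.2% to 83.2% of the uncompressed mean, with a median of 51.3%. With the transwell libraries fitted on their own all 59 genes were called lower, where 38.6% of all genes were called. Without any 1 of the 4 compared libraries the pooled fit called fewer genes. The median log2 fold change of the 59 genes was then -0.97 to -0.92.

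All 4 chromosomal passengers fell, as did 6 of 7 entry genes. BIRC5 fell most, with 42.8 and 39.7 CPM under the weight and 107 and 104 CPM uncompressed, a log2 fold change of -1.35 ± 0.16 (adjusted p = 0.000513). AURKB had 15.6 and 17.6 CPM under the weight and 30.3 and 31.5 CPM uncompressed, a log2 fold change of -0.90 ± 0.19 (adjusted p = 0.0135). CDK1 had 50.3 and 48.4 CPM under the weight and 96.6 and 87.8 CPM uncompressed, a log2 fold change of -0.90 ± 0.19 (adjusted p = 0.0136). In these genes replicates differed by far less than the groups. CCNB1 had 67.6 and 60.01 CPM under the weight and 126 and 124 CPM uncompressed, a log2 fold change of -0.97 ± 0.19 (adjusted p = 0.0086). CDC25B was the entry gene that did not pass, at 45.6 and 44.5 CPM under the weight and 56.8 and 57.1 CPM uncompressed (log2 fold change -0.34 ± 0.19).

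Centrosome and spindle genes fell in 5 of 8 and kinesins in 6 of 10. PLK1 had 62.1 and 60.1 CPM under the weight and 131 and 137 CPM uncompressed, a log2 fold change of -1.13 ± 0.12 (adjusted p = 0.000245). TPX2 had 172 and 170.1 CPM under the weight and 294 and 295 CPM uncompressed, a log2 fold change of -0.79 ± 0.22 (adjusted p = 0.0453). KIF11 had 51.2 and 50.7 CPM under the weight and 104 and 107 CPM uncompressed, a log2 fold change of -1.05 ± 0.29 (adjusted p = 0.0431). TPX2 and KIF11 passed narrowly despite close replicates. HMMR, a microtubule-binding protein of the spindle, had a larger change that did not pass: 38.4 and 32.2 CPM under the weight and 83.1 and 80.3 CPM uncompressed (log2 fold change -1.21 ± 0.35, adjusted p = 0.0534).

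Kinetochore genes fell in 5 of 9, checkpoint genes in 2 of 5, chromosome structure genes in 3 of 7, genes of anaphase and destruction in 4 of 6, and 1 of 3 cytokinesis genes. CENPE, the kinesin-like protein that moves chromosomes to the spindle equator, had 25.5 and 29.7 CPM under the weight and 64.6 and 68.1 CPM uncompressed (log2 fold change -1.27 ± 0.43, adjusted p = 0.0902). CENPF had 83.3 and 99.5 CPM under the weight and 180.1 and 208 CPM uncompressed (log2 fold change -1.09 ± 0.33, adjusted p = 0.0651). TOP2A had 347 and 373 CPM under the weight and 755 and 783 CPM uncompressed (log2 fold change -1.10 ± 0.39, adjusted p = 0.111). These genes were near or under 50% of their uncompressed level and missed the threshold in the pooled fit, and all were called with the transwell libraries on their own. The isotonic replicates of TOP2A and CENPF, given above, lay far apart. Whether this bears on the missed threshold was not tested. UBE2C passed, with 18.7 and 19.6 CPM under the weight and 36.0 and 39.5 CPM uncompressed. Its log2 fold change was -0.98 ± 0.13 (adjusted p = 0.000785). MKI67 had 102 and 149 CPM under the weight and 219 and 285 CPM uncompressed (log2 fold change -1.01 ± 0.32, adjusted p = 0.0734). BUB1B had 41.2 and 39.7 CPM under the weight and 73.9 and 73.0 CPM uncompressed, with an adjusted p of 0.0614. Among the smallest differences were those of BUB3, at 116 and 102 CPM under the weight and 129.7 and 132 CPM uncompressed (log2 fold change -0.27 ± 0.10, adjusted p = 0.15), and of KNL1, at 44.2 and 50.2 CPM under the weight and 62.8 and 61.4 CPM uncompressed. ANLN, at 106 and 103 CPM under the weight and 158 and 150.3 CPM uncompressed, did not pass either (log2 fold change -0.56 ± 0.23).

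Of the other 108 mitosis genes, 38 fell under the weight and none rose, where 4.18% of all genes fell and 5.4% rose. The median log2 fold change of the 108 was -0.49. The 38 held 16 of the other centromere and kinetochore genes, led by CENPM at -1.45, and 9 of the other spindle and cytokinesis genes, led by SPAG5 at -1.10. CENPM was at a low level, 1.41 CPM under the weight and 3.83 CPM uncompressed. Among the other regulators of entry and exit 7 fell, led by the phosphatase CDC25A at -1.08. MYBL2 fell by 0.85, and 1 APC/C gene, ANAPC5, fell by 0.47 on the log2 scale.

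The 36 genes that fell under the weight in HepG2 had all fallen in 4% PEG as well, as all 59 did there. The 2 comparisons share no library. Across the 59 genes their log2 fold changes had a Pearson correlation of 0.61 and a Spearman correlation of 0.47, given as a description, since the genes share libraries and normalisation. The fall was larger in 4% PEG for nearly every gene: the difference between the PEG and the weight effect passed the test for 58 genes, where 29.9% of all genes did, with a median of -4.20. It was -6.89 ± 0.57 for DLGAP5 (adjusted p = 5.67e-06) and -6.86 ± 0.35 for CDK1 (adjusted p = 2.28e-07). BUB3 was the exception, at -0.04 (adjusted p = 0.88). The kind of compression, the culture surface and possibly time cannot be told apart in this difference.

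**Figure D3:**
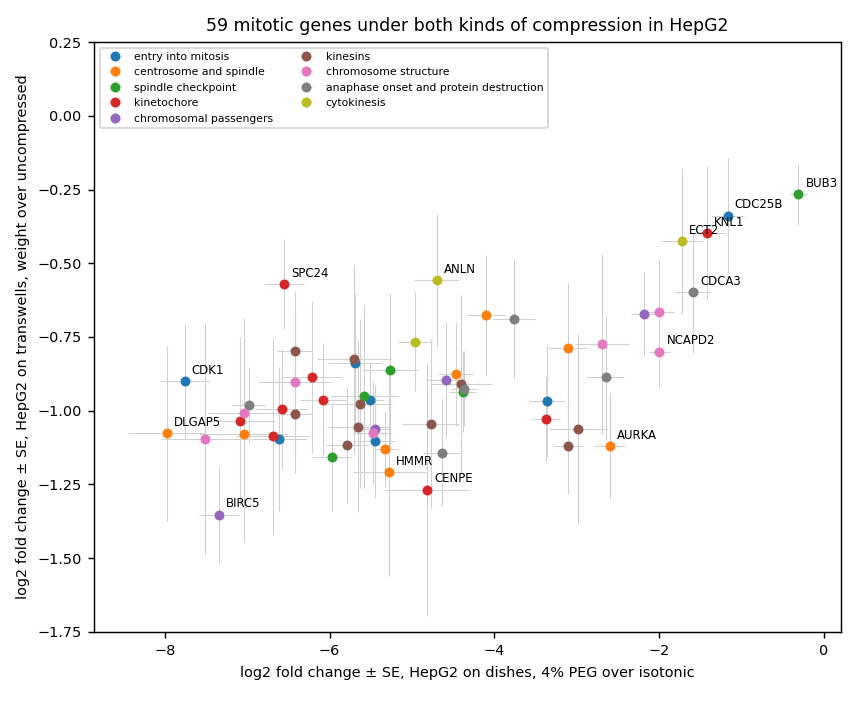
Log2 fold change of each of the 59 mitotic genes in HepG2, in 4% PEG over isotonic medium on dishes (x axis) and under the weight over uncompressed on transwells (y axis), with SE from the pooled TMM-scaled fit as bars and roles as colours. All points lie below 0 on both axes, and the x axis spans a far wider range than the y axis. BUB3 lies near the upper right, DLGAP5 and CDK1 farthest to the left, and BIRC5 lowest.

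In Hep3B the weight left no called change. In edgeR's test 0 of the 59 mitotic genes were called and 0 had an unadjusted p under 0.05, and DESeq2 called 0 as well; among all genes 1.05% were called. The mean under the weight was 84.6% to 117% of the uncompressed mean. Both libraries under the weight lay below both uncompressed ones in 15 genes, where 29.7% of all genes did, and above both in 14, where 23.6% did. The largest differences were those of CDC20, ZWINT and PLK4. CDC20, the activator of the APC/C, had 81.4 and 76.3 CPM under the weight and 93.6 and 92.8 CPM uncompressed (log2 fold change -0.24 ± 0.12, adjusted p = 0.69). ZWINT, a kinetochore protein that binds KNL1, had 62.9 and 58.9 CPM under the weight and 75.7 and 67.1 CPM uncompressed (log2 fold change -0.23 ± 0.14). PLK4, the kinase of centriole duplication, had 32.1 and 32.1 CPM under the weight and 26.6 and 28.3 CPM uncompressed (log2 fold change 0.22 ± 0.17). In these 3 genes the groups did not overlap, and none passed the test. CDK1 had 144 and 136 CPM under the weight and 138 and 136 CPM uncompressed (log2 fold change 0.03 ± 0.19). SPC24 had 33.5 and 33.0 CPM under the weight and 33.0 and 33.9 CPM uncompressed, SMC2 163 and 159 CPM under the weight and 159 and 159 CPM uncompressed, and KIF11 140.5 and 145 CPM under the weight and 138 and 149 CPM uncompressed. With the transwell libraries fitted on their own, ZWINT and CDC20 were called lower, at -0.20 and -0.21, and PLK4, KIF14 and TOP2A higher, at 0.26, 0.17 and 0.14, where 15.2% of all genes were called. Of the other 108 mitosis genes 0 were called in the pooled fit, with a median of -0.06.

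The weight effect differed between the lines. The difference, Hep3B minus HepG2, passed the test for 12 genes, where 1.89% of all genes did, 0.822% as higher and 1.07% as lower, each time with a less negative effect in Hep3B, and its median over the 59 genes was 0.93. It was 1.27 ± 0.26 for BUB1 (adjusted p = 0.0298) and 1.22 ± 0.23 for BIRC5 (adjusted p = 0.0219). BUB1 had 121 and 108 CPM under the weight and 104 and 107 CPM uncompressed in Hep3B, and 54.3 and 50.1 CPM under the weight and 119 and 114 CPM uncompressed in HepG2. BIRC5 had 85.4 and 78.3 CPM under the weight and 89.9 and 89.96 CPM uncompressed in Hep3B. The other genes that passed were CCNB2, KIF2C, PLK4, KIF4A, PLK1, UBE2C, CDCA8, NCAPD2, MAD2L1 and FOXM1. Without any 1 of the 8 libraries nearly all of these calls were lost, while the median difference of the 59 genes was 0.91 to 0.96. With the transwell libraries fitted on their own 58 genes passed, where 22.4% of all genes were called.

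In Hep3B 3% PEG moved few mitotic genes, and not all one way. In the test 5 fell, 2 rose and 52 did not pass, where 22.5% of all genes were called, 11.5% as lower and 11% as higher; the share among the mitotic genes is not above that background. The median log2 fold change was -0.16, and the mean in 3% PEG was 57.0% to 172% of the uncompressed mean. Both PEG libraries lay below both uncompressed ones in 37 genes, where 37.5% of all genes did, and above both in 12, where 35.5% did. With the transwell libraries fitted on their own 29 were called lower and 10 higher, where 52.6% of all genes were called. Without any 1 of the 4 compared libraries the calls other than ZWINT were lost. The median log2 fold change of the 59 genes was then -0.21 to -0.14.

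ZWINT had 40.5 and 40.9 CPM in 3% PEG and 75.7 and 67.1 CPM uncompressed, a log2 fold change of -0.81 ± 0.14 (adjusted p = 0.00156). UBE2C had 57.0 and 56.5 CPM in 3% PEG and 77.0 and 78.4 CPM uncompressed, a log2 fold change of -0.45 ± 0.13 (adjusted p = 0.0224). KIF20A, a kinesin of the central spindle, had 47.4 and 48.1 CPM in 3% PEG and 72.1 and 76.3 CPM uncompressed, a log2 fold change of -0.64 ± 0.19 (adjusted p = 0.034). SPC24 and ESPL1, or separase, fell by 0.52 and 0.62 on the log2 scale. In all 5 the PEG libraries lay together below the uncompressed ones. The 2 that rose were CDC25B and NEK2. CDC25B had 67.7 and 74.4 CPM in 3% PEG and 40.8 and 41.6 CPM uncompressed, a log2 fold change of 0.79 ± 0.19 (adjusted p = 0.013). NEK2, the kinase that splits centrosomes, had 153 and 149 CPM in 3% PEG and 90.8 and 93.5 CPM uncompressed, a log2 fold change of 0.71 ± 0.20 (adjusted p = 0.0239). Both had fallen in HepG2 in 4% PEG, where NEK2 had 2.44 and 2.04 CPM, against 48.9 and 27.9 CPM in isotonic medium. The smallest differences were those of KIF4A, CDCA5 and ASPM. KIF4A, a chromosome-bound kinesin, had 84.7 and 81.9 CPM in 3% PEG and 81.7 and 84.4 CPM uncompressed. CDCA5, or sororin, which keeps sister chromatids together, had 55.8 and 61.0 CPM in 3% PEG and 59.5 and 58.4 CPM uncompressed. ASPM, a spindle pole protein, had 360.2 and 373 CPM in 3% PEG and 348 and 377 CPM uncompressed.

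CDK1 had 102 and 97.7 CPM in 3% PEG and 138 and 136 CPM uncompressed, a difference that did not pass (log2 fold change -0.46 ± 0.19, adjusted p = 0.11). PLK1 had 88.4 and 94.8 CPM in 3% PEG and 106 and 119 CPM uncompressed, also without passing (adjusted p = 0.109). CCNB1, AURKB, TOP2A and BIRC5 were likewise not called, although in each both PEG libraries lay below both uncompressed ones. MKI67 overlapped, with 300.4 and 338 CPM in 3% PEG and 282 and 377 CPM uncompressed. Of the other 108 mitosis genes 11 fell and 10 rose, with a median of -0.09. Among all genes 11.5% were called lower and 11% higher, and neither share of the 108 is above that background. Those called included the histone-binding MuvB subunit RBBP4 at -1.30, the APC/C subunit ANAPC15 at -1.32 and the kinetochore gene SKA2 at -1.26. The kinesin KIF2A rose by 0.80.

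**Figure D4:**
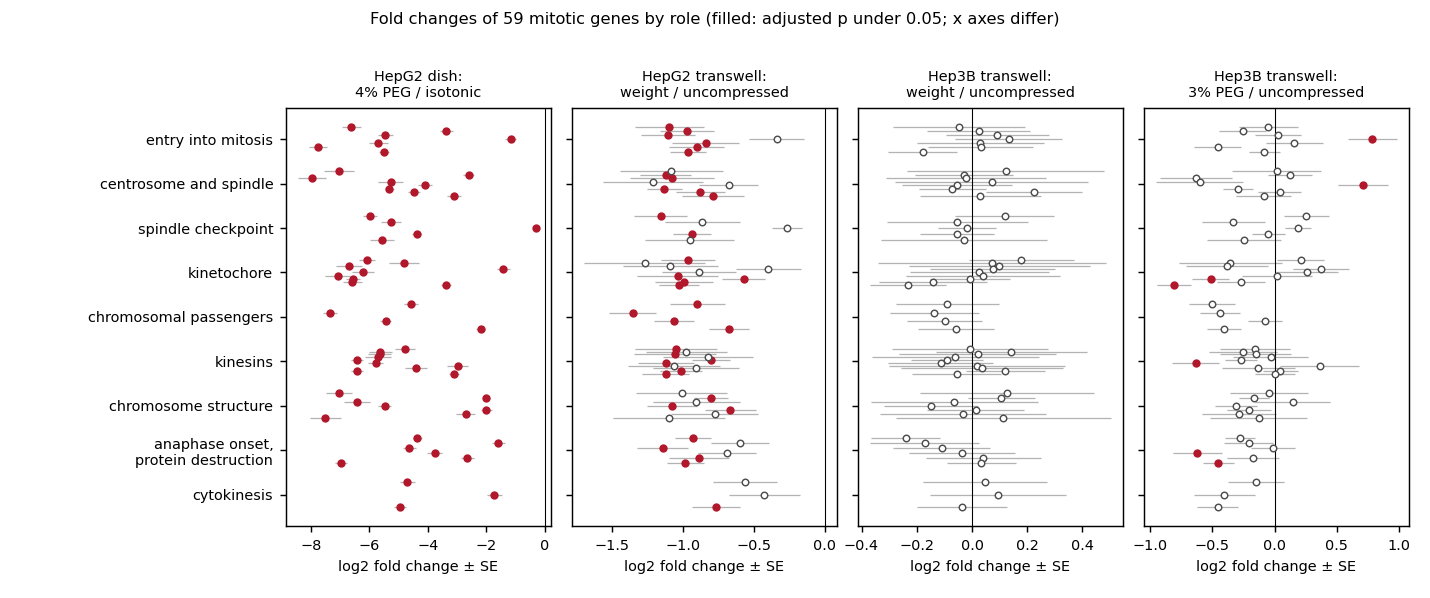
Log2 fold changes with SE of the 59 mitotic genes by role in the 4 treatment comparisons (filled red points have an adjusted p under 0.05 in the pooled edgeR fit, open points do not; x axes differ between panels). All 59 points are filled and below 0 for HepG2 in 4% PEG, 36 are filled for HepG2 under the weight, none for Hep3B under the weight, and 5 below and 2 above 0 for Hep3B in 3% PEG.

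Set against each other in Hep3B, the weight and 3% PEG differed in 6 mitotic genes, where 23.1% of all genes were called. NEK2 and CDC25B were lower under the weight than in 3% PEG, at -0.77 ± 0.20 (adjusted p = 0.0169) and -0.65 ± 0.19 (adjusted p = 0.0305). ZWINT, ESPL1, SPC24 and UBE2C were higher, led by ZWINT and ESPL1, both at 0.58. ESPL1 had 59.2 and 54.6 CPM under the weight, 35.2 and 40.7 CPM in 3% PEG and 58.2 and 58.6 CPM uncompressed. The weight libraries of ESPL1 thus lay near the uncompressed ones and the PEG libraries below both. With the transwell libraries fitted on their own 8 were lower and 33 higher, where 52.1% of all genes were called. Without any 1 of the 4 compared libraries the calls of the pooled fit were lost. The median log2 fold change of the 59 genes was then 0.16 to 0.19.

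The PEG effect, Hep3B in 3% PEG minus HepG2 in 4% PEG, differed for all 59 mitotic genes, where 25.5% of all genes passed. Its median was 4.93, with 7.38 ± 0.63 for TOP2A (adjusted p = 6.95e-06) and 7.34 ± 0.56 for DLGAP5 (adjusted p = 3.51e-06) as the largest and 0.50 for BUB3 (adjusted p = 0.0286) as the smallest. TOP2A had 903 and 909.6 CPM in 3% PEG and 976 and 1005 CPM uncompressed in Hep3B. DLGAP5 had 63.1 and 61.1 CPM in 3% PEG and 95.4 and 96.8 CPM uncompressed in Hep3B. The line, the PEG dose and the culture surface differ together here and cannot be told apart.

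Without compression on transwells, the lines differed in the level of these genes. In Hep3B against HepG2, 31 were higher and 4 lower, where 54.7% of all genes were called, 27.6% as higher and 27.1% as lower. The median log2 fold change was 0.57. Both Hep3B libraries lay above both HepG2 ones in 44 genes, where 43.3% of all genes did, and below both in 13, where 42% did. With the transwell libraries fitted on their own 43 were higher and 12 lower, where 74% of all genes were called. With libraries scaled by their totals alone 42 were higher and 0 lower, and the median of all genes was then 0.35. In that setting 57% of all genes were called, 7178 of 19232 as higher and 3788 as lower.

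ESPL1 had 58.2 and 58.6 CPM in Hep3B and 14.9 and 16.9 CPM in HepG2, a log2 fold change of 1.87 ± 0.20 (adjusted p = 9.62e-06). ASPM had 348 and 377 CPM in Hep3B and 103 and 108 CPM in HepG2, a log2 fold change of 1.79 ± 0.37 (adjusted p = 0.00151). All 3 cytokinesis genes were higher in Hep3B, as were 3 of 4 passengers and 5 of 9 kinetochore genes. The 4 that were lower in Hep3B were HMMR, AURKA, PLK4 and CENPA. Of the 8 centrosome and spindle genes 3 were higher and 3 lower, with a median log2 fold change of 0.13. HMMR had 38.6 and 40.2 CPM in Hep3B and 83.1 and 80.3 CPM in HepG2, a log2 fold change of -1.05 ± 0.35 (adjusted p = 0.0239). AURKA had 93.7 and 96.6 CPM in Hep3B and 155 and 155 CPM in HepG2, a log2 fold change of -0.71 ± 0.18 (adjusted p = 0.00522). The order of the lines was therefore not the same for all spindle genes in the TMM-scaled fit, while no mitotic gene was called lower with library totals alone.

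**Figure D5:**
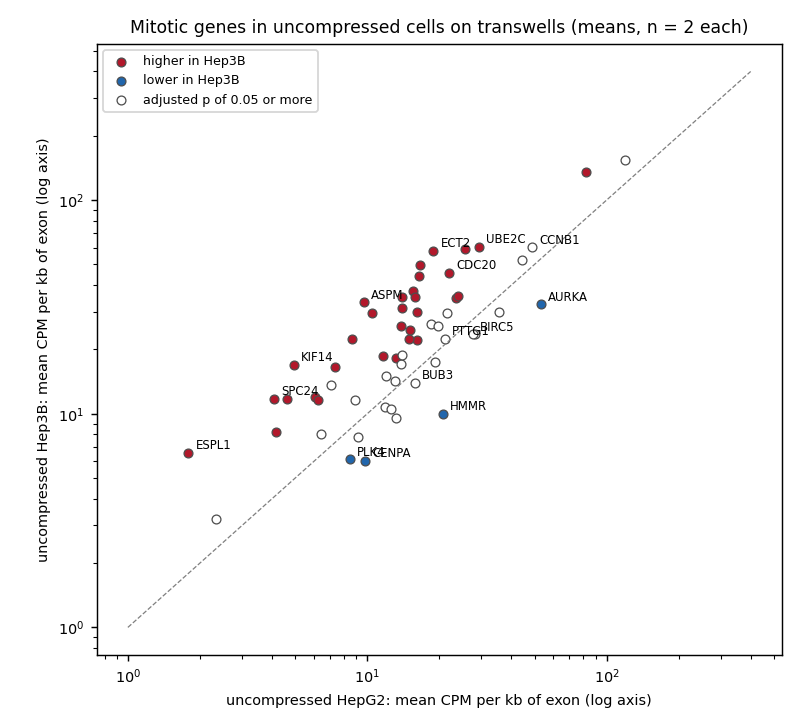
Mean level of each of the 59 mitotic genes in uncompressed cells on transwells, as CPM per kb of exon on log axes, with HepG2 on the x axis and Hep3B on the y axis (red, higher in Hep3B; blue, lower in Hep3B; open, not called in the TMM-scaled fit; dashed line, equal levels). The 31 red points lie above the line, with ESPL1 and ASPM among the farthest, and the 4 blue points HMMR, AURKA, PLK4 and CENPA lie below it.

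Some mitotic genes differed between surfaces in HepG2 without compression. The median log2 fold change, transwells over dishes, was 0.29 over the 59 genes and 0.01 over all genes. On transwells against dishes, 8 mitotic genes were higher and 0 lower, where 10.1% of all genes were called, 4.79% as higher and 5.33% as lower. Both transwell libraries lay above both dish ones in 27, where 26.1% of all genes did, and the groups overlapped in 32. ZWINT had 41.1 and 35.9 CPM on transwells and 16.7 and 20.5 CPM on dishes, a log2 fold change of 1.05 ± 0.14 (adjusted p = 0.00191). FOXM1 had 68.4 and 67.8 CPM on transwells and 36.2 and 40.7 CPM on dishes, a log2 fold change of 0.83 ± 0.13 (adjusted p = 0.00376). CDCA5, CDC20, PLK1, KIF18B, CDCA8 and NCAPD2 were the others, each with a smaller difference. The count depended on single libraries, rising or falling with the one left out. It was 0 with the compared groups fitted alone, where 0% of all genes were called. The median log2 fold change of the 59 genes was 0.63 without replicate 1 of isotonic medium and 0.03 without replicate 2 of it. It was 0.29 without replicate 1 of uncompressed transwells and also without replicate 2 of them. The surface and any culture time or sequencing run that went with it cannot be told apart in this comparison.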

How the data were processed

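Total RNA (RNeasy mini kit, paired reads of 100 bp, Illumina HiSeq or NovaSeq) gave 14 libraries in 7 groups of 2, per the labels. The deposited table holds raw counts per gene, neither pooled nor normalised. STAR, DESeq2 and GRCh38 (hg38) appear in the submitters' processing notes; versions, the counting tool and the annotation were not given in the sources used here, and library totals of 21.2 M to 35.4 M set the precision of low counts. Entries without a name (15420) held 0.229% to 0.308% of counts and stayed in library sizes and tests as genes with an ID. Hep3B columns headed as control were read as uncompressed transwell Hep3B, no other Hep3B group being left for them.

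Counts were tested with edgeR 4.0.16 in R 4.3.3: filterByExpr (minimum count 10), TMM scaling, 1 mean per group over all 14 libraries, robust quasi-likelihood fit with 7 residual degrees of freedom, Benjamini-Hochberg adjustment over 19232 genes, threshold 0.05. Standard errors are the log2 fold change divided by the root of the F statistic. Levels are CPM; levels per kb use merged exons of GENCODE 29. The fit was tested on simulated data. Promoters are RefSeq windows. A marker on the liver list is not reported here.

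The members, the role groups and the other mitosis lists were chosen with earlier results of these data known. Values by library are given for the most abundant member of each role, the 3 largest and 3 smallest changes of each treatment comparison, members that rose, well-known members, and the 2 most positive and 2 most negative members called in the other contrasts; other members are named as examples of their role, and of each other mitosis list the largest called change.

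Replicate numbers were not used as pairs, since no label ties them to a shared culture or day: deviations of same-numbered libraries correlated at 0.633 between the 2 dish groups, and above 0.1 in 3 of 21 group pairs in all. No pair of libraries was identical. Alternatives were RLE factors, no or a stricter filter (5 CPM in 2 libraries), DESeq2 1.42.0, a replicate block, separate dish and transwell fits (limited by 2 and 5 residual degrees of freedom), the compared groups alone, a log2 minimum of 1 and leaving out each library; a library left alone in its group was taken to vary as the other groups do. Scaling by library totals alone was added after seeing the data.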

Additional observations from a re-analysis of the deposited data

Results flagged for a closer look

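By a test of the difference itself, the effect of the weight differed between Hep3B and HepG2 for 12 of the 59 mitotic genes. Of all genes 1.89% passed, and the difference was 1.2163 for BIRC5 and 1.2742 for BUB1 on the log2 scale. The effect of PEG differed between Hep3B at 3% on transwells and HepG2 at 4% on dishes for 59 genes. Of all genes 25.5% passed, and the difference was 7.3411 for DLGAP5 and 7.3823 for TOP2A. In HepG2 the effect of 4% PEG differed from that of the weight for 58 genes, where 29.9% of all genes passed. The difference was -6.8944 for DLGAP5 and -6.8587 for CDK1. What these differences come from was not tested.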

How the results depend on the processing

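With 1 library left out, calls in HepG2 in 4% PEG changed only for BUB3. The median log2 fold change of the 59 genes was then -5.50 to -4.87. With library totals alone the log2 fold change of BUB3 turned to 0.045. The counts of the other comparisons moved more. With dish and transwell libraries fitted separately, which changes the libraries, scaling, filter and degrees of freedom together with the coefficient of variation (0.0583 for transwells, against 0.168 pooled), members called were 59 for HepG2 under the weight, 5 for Hep3B under the weight, 39 for 3% PEG, 41 for the weight against 3% PEG, 55 between lines and 58 for the difference of the weight effects. Of all genes 38.6%, 15.2%, 52.6%, 52.1%, 74% and 22.4% were called there, in the same order. The pooled fit called 9.58%, 1.05%, 22.5%, 23.1%, 54.7% and 1.89% of all genes. With the compared groups fitted alone the member counts were 58, 3, 42, 35, 57 and 57, in the same order, and 0 between surfaces. Of all genes 44.5%, 15.2%, 60%, 56.9%, 79.2% and 20.9% were called, and 0% between surfaces. With a log2 fold change of at least 1 they were 17 for HepG2 under the weight and 0 for 3% PEG. They were 0 for the weight against 3% PEG, 19 between lines and 1 between surfaces. In that setting 4.68%, 11.29%, 11.64%, 37.41% and 4.74% of all genes were called, in the same order. Without a low-count filter 11 members were called for 3% PEG (12.2% of all genes) and 10 for the weight against 3% PEG (12.1%). For the difference of the weight effects 37 were called (1.76%). DESeq2 called 11 (24.6%), 10 (24.9%) and 24 (3.97%), in the same order. RLE factors gave 7 for the difference of the weight effects (1.82% of all genes). Library totals alone gave 4 for 3% PEG (23.8% of all genes) and 16 between surfaces (14.7%). Leaving out 1 library gave 16 to 18 members for HepG2 under the weight, 1 for 3% PEG, 0 for the weight against 3% PEG, 24 to 27 between lines, 1 to 33 between surfaces, 0 to 1 for the difference of the weight effects, 54 to 57 for 4% PEG against the weight and 57 to 59 for the difference of the PEG effects. With plain library totals the summed level was 2499 CPM in HepG2 under the weight and 4673 CPM uncompressed, and 9386 CPM under the weight, 8806 CPM in 3% PEG and 9190.0 CPM uncompressed in Hep3B. For each of these counts the cause was not tested.

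Same-numbered dish libraries deviated together, with a correlation of 0.633 between 4% PEG and isotonic medium. Only 3 of 21 group pairs were above 0.1 in all, and no label gives the numbers a meaning. The replicate block takes 1 common effect over all 14 libraries and does not model a pairing of the dish libraries alone. The block is therefore given only as a setting. With it 11 members were called in 3% PEG, 44 in HepG2 under the weight (36 of them called without the block), 10 between surfaces and 16 for the difference of the weight effects, and the counts for 4% PEG (59) and for Hep3B under the weight (0) were as without it. With the block 24.6% of all genes were called in 3% PEG, 11.2% in HepG2 under the weight and 11.9% between surfaces. For the difference of the weight effects it was 2.29%, for 4% PEG 49% and for Hep3B under the weight 1.22%. Depth limits the size of the largest falls in 4% PEG, where 24 members averaged under 1 CPM.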
